A study of Mus musculus with 2 samples.

Results

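The p38 and JNK kinases are the stress-activated branches of the mitogen-activated protein kinase (MAPK) family. The 10 genes described here were taken by name and not by a cutoff on their values, although earlier results of these data were known. Mapk14, Mapk11, Mapk12 and Mapk13 encode p38α, p38β, p38γ and p38δ, and Mapk8 and Mapk9 encode JNK1 and JNK2. Map2k3, Map2k6, Map2k4 and Map2k7 encode the MAP2 kinases MKK3, MKK6, MKK4 and MKK7. All 10 were found by Ensembl identifier among the 21911 genes listed for 2 RNA sequencing libraries of 4T1 cells, a mouse mammary carcinoma line that spreads to the lung. The control library came from cells treated with PBS, and the other library from cells treated with potassium oxalate, in both cases for 48 h. The dose of oxalate is given as 20 mM in the protocol of the sample labels and as 20 µM in their characteristics and in the paper, so it is uncertain. Both libraries come from the same cell line, with no genetic modification named for them. Each condition has 1 library, and no difference between the libraries has a replicate check or a test.

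In this pathway a signal such as osmotic shock, oxidants or a cytokine activates a MAP3 kinase, which phosphorylates a MAP2 kinase, which in turn phosphorylates a threonine and a tyrosine in the activation lip of a MAP kinase. MKK3 and MKK6 act on p38 kinases, MKK7 on JNK kinases, and MKK4 mainly on JNK and also on p38. Activity therefore lies in the phosphorylated protein, which mRNA levels do not measure. The study probed phosphorylated p38 in 4T1 cells after oxalate and used a p38 inhibitor to ask whether p38 takes part in the effect of oxalate on growth. It also probed phosphorylated MEK and ERK and c-fos. From its RNA sequencing of 4T1 cells it linked genes raised by oxalate to MAPK signaling. The question put to the libraries is which p38 and JNK genes and activators these cells transcribe, and how their levels compare between the conditions.

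The phosphorylated site is given as coding sequence, because it links each tier to the next and its middle residue differs between the p38 and JNK kinases. The windows were read from the GENCODE M21 transcripts on GRCm38, 5′ to 3′ on the coding strand, from the principal transcript of each gene. Capitals mark the codons of the threonine, the middle residue and the tyrosine of the lip in the MAP kinases, and the codons of the serine and the threonine of the activation loop in the MAP2 kinases. The middle codon is glycine in the 4 p38 genes and proline in both JNK genes.
Mapk14, chr17:28728390-28728416, plus strand, exon 7: gatgagatgACAGGCTACgtggctacc
Mapk11, chr15:89145857-89145883, minus strand, exon 7: gaggagatgACCGGATATgtggccaca
Mapk12, chr15:89134667-89134693, minus strand, exon 7: agtgagatgACAGGATATgtggtaacc
Mapk13, chr17:28776335-28776361, plus strand, exon 7: actgagatgACGGGCTATgtggtgacc
Mapk8, chr14:33392994-33393020, minus strand, exon 6: tttatgatgACGCCTTATgtggtgact
Mapk9, chr11:49872821-49872847, plus strand, exon 6: tttatgatgACTCCCTATgtggtaact
Map2k3, chr11:60946721-60946747, plus strand, exon 8: gtggacTCTgtggcaaagACAatggat
Map2k6, chr11:110496416-110496442, plus strand, exon 8: gtcgacTCTgttgctaaaACGatcgat
Map2k4, chr11:65707008-65707034, minus strand, exon 7: gtggacTCTattgccaagACAagagat
Map2k7, chr8:4244556-4244582, plus strand, exon 7: gttgacTCCaaagccaaaACAcggagt

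A second stretch bears on which isoforms a p38 inhibitor can reach. Classical inhibitors of p38α and p38β need a small residue, threonine, at the gatekeeper position of the ATP pocket, and a bulky methionine there blocks them. Capitals mark the gatekeeper codon, found by aligning each protein with p38α, in which it is codon 106. It is a threonine codon in Mapk14 and Mapk11 and a methionine codon in Mapk12, Mapk13, Mapk8 and Mapk9. In all 6 genes the window lies across an exon junction, so the coordinates include the intron between the exons.
Mapk14, chr17:28715437-28724771, plus strand, exons 3 and 4: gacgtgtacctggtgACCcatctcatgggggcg
Mapk11, chr15:89146356-89146475, minus strand, exons 3 and 4: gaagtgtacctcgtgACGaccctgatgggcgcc
Mapk12, chr15:89135661-89137405, minus strand, exons 3 and 4: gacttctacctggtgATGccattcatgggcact
Mapk13, chr17:28771212-28775281, plus strand, exons 3 and 4: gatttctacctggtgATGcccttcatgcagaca
Mapk8, chr14:33402735-33402869, minus strand, exons 4 and 5: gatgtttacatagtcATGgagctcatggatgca
Mapk9, chr11:49867037-49869199, plus strand, exons 4 and 5: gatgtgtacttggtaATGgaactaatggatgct

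The level of a gene is given in FPKM, the number of fragments divided by transcript length and by library size, so that levels can be compared between genes. The steps between low FPKM values gave an estimated depth of 56800000 reads in the PBS library and 36500000 reads in the oxalate library. The reads of each gene were estimated from these steps and from the mean length of its coding transcripts, and intervals given here are exact 95% intervals that cover counting error only. The values summed to 567163 FPKM for PBS and 559026 FPKM for oxalate. The 6 epithelial markers (Epcam, Cdh1, Krt7, Krt8, Krt18 and Krt19) were between 125.71 and 703.31 FPKM under PBS and between 125.33 and 699.04 FPKM under oxalate. The 6 leukocyte markers were listed at 0 in both libraries, the 3 endothelial markers reached at most 0.05 FPKM, and the 4 fibroblast markers at most 1.93 FPKM. In bulk RNA, fewer cells that transcribe a gene and less RNA per cell cannot be told apart.

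All 4 p38 genes were transcribed in 4T1 cells, and the levels were unequal. Mapk13, which encodes p38δ, an isoform of epithelial tissues, was highest at 43.02 FPKM under PBS (41.6 to 44.5) and 41.71 FPKM under oxalate (40 to 43.5). Mapk14, which encodes the widely expressed p38α, followed at 39.51 FPKM under PBS (38.5 to 40.6) and 38.95 FPKM under oxalate (37.7 to 40.3). The intervals of these genes did not overlap under PBS and overlapped slightly under oxalate, and Mapk13 was 1.09 times Mapk14 under PBS and 1.07 times under oxalate. The intervals leave out uncertainty in transcript length, so they do not settle which of these genes was higher. Mapk12, which encodes p38γ, was at 20.65 FPKM under PBS and 20.25 FPKM under oxalate. Mapk11, which encodes p38β, was lowest at 12.16 FPKM under PBS and 12.49 FPKM under oxalate. Mapk14 was thus 3.25 times Mapk11 under PBS and 3.12 times under oxalate.

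Together the p38 genes held 115.34 FPKM under PBS and 113.40 FPKM under oxalate, of which Mapk14 made up 34.3% in both libraries. Mapk11 made up 10.5% and 11%, Mapk12 17.9% in both, and Mapk13 37.3% and 36.8%. The genes with the threonine gatekeeper codon, Mapk14 and Mapk11, held 51.67 FPKM under PBS and 51.44 FPKM under oxalate, or 44.8% and 45.4% of the p38 sum. The larger part by FPKM belonged to Mapk12 and Mapk13, with the methionine codon, at 55.2% and 54.6%. In estimated reads, a quantity that is not divided by length and grows with it, Mapk14 made up 42.7% in both libraries and the threonine pair 55.8% under PBS and 56.3% under oxalate. Estimated reads are FPKM multiplied by annotated length, so this shift was fixed by those lengths and does not check the split in FPKM. The split in FPKM depends on the transcript lengths behind FPKM, which are not given in the sources used here.

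The JNK genes were at the lower end of the detected members, Mapk8 near Mapk11 and Mapk9 below it, at mid-range levels among all genes above 0, whose median was 9.59 FPKM under PBS and 10.34 FPKM under oxalate. Mapk8 was at 12.37 FPKM under PBS and 12.41 FPKM under oxalate, and Mapk9 at 8.78 FPKM under PBS and 8.37 FPKM under oxalate. Their sum was 21.15 FPKM under PBS and 20.78 FPKM under oxalate, and the p38 sum was 5.45 and 5.46 times as high. Mapk10, which encodes the neuronal isoform JNK3 and was not among the 10 genes, was listed at 0.01 FPKM under PBS and at 0 under oxalate. Mapk9 made up 41.5% of the JNK sum under PBS and 40.3% under oxalate, but 51.9% and 50.6% in estimated reads. That shift too was fixed by the annotated lengths and does not check the split in FPKM.

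Of the 4 MAP2 kinase genes 3 were detected, and Map2k3 and Map2k4 lay above all 6 MAP kinase genes of the set. Map2k3 was the highest of the 10 genes at 103.58 FPKM under PBS and 98.04 FPKM under oxalate, above 93.1% and 92.4% of the genes with a value over 0. Map2k6, which encodes the other dedicated p38 activator, was listed at 0 in both libraries. At the estimated depth a count of 0 allows up to 3 reads, which for Map2k6 corresponds to 0.025 FPKM under PBS and 0.040 FPKM under oxalate. MKK3 and MKK6 are close relatives, with 78.1% identical residues in their translated coding sequences and 71.5% identical coding bases, and the longest run of bases shared by any of their transcripts was 23. A p38 activator was thus detected in the form of Map2k3, at 0.898 times the p38 sum under PBS and 0.865 times under oxalate. These ratios leave out Map2k4, whose product also acts on p38 but which is counted here with the JNK activators. Map2k4 was at 79 FPKM under PBS and 81.18 FPKM under oxalate, and Map2k7 at 34.07 FPKM under PBS and 36.23 FPKM under oxalate. The pair of JNK activators, 113.07 FPKM under PBS and 117.41 FPKM under oxalate, was 5.35 and 5.65 times the JNK sum.

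**Figure D1:**
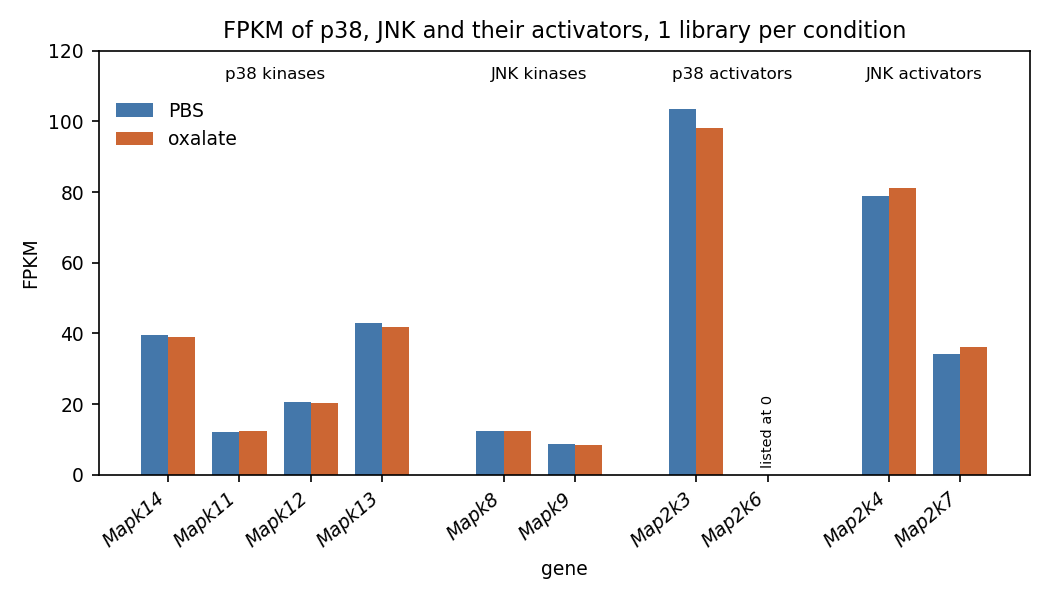
FPKM (linear axis) of the 10 genes, grouped as p38 kinases, JNK kinases, p38 activators and JNK activators, in the PBS library (blue bars) and the oxalate library (orange bars). Map2k3 is highest at 103.58 and 98.04 FPKM, Map2k6 has no bar because it is listed at 0, and the bars of each gene are of nearly the same height in both libraries.

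Ordered by level, the genes ran Map2k3, Map2k4, Mapk13, Mapk14, Map2k7, Mapk12, Mapk8, Mapk11, Mapk9 and Map2k6 under PBS. The order under oxalate differed in 1 place, with Mapk11 above Mapk8. The intervals of Mapk8 (11.8 to 13 FPKM under PBS and 11.7 to 13.2 FPKM under oxalate) and Mapk11 (11.6 to 12.7 FPKM and 11.8 to 13.2 FPKM) overlapped in both libraries, so these neighbours could not be ordered at this depth. The intervals of Mapk14 (37.7 to 40.3 FPKM) and Map2k7 (34.8 to 37.7 FPKM) met under oxalate. Apart from Mapk13 and Mapk14, those of all other detected neighbours were separate in both libraries. Separate intervals order these genes for counting error alone, since uncertainty in transcript length is left out. For comparison, Mapk3, which encodes ERK1, was at 92.33 FPKM under PBS and 105.01 FPKM under oxalate. Mapk7, which encodes ERK5, was at 9.44 FPKM under PBS and 13.4 FPKM under oxalate. The MAP2 kinases outside the set were at 22.97 FPKM (Map2k1), 105.02 FPKM (Map2k2) and 12.37 FPKM (Map2k5) under PBS, and at 22.38, 97.63 and 13.06 FPKM under oxalate.

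The libraries were compared by log2((oxalate + 1)/(PBS + 1)) for the 10267 genes whose mean was at least 1 FPKM. The added 1 makes differences between low values look smaller. Of the 10 genes 9 passed this filter, and Map2k6 did not. The levels of the 9 were nearly the same in both libraries. None differed by 1.2-fold or more, beside 9.94% of all genes compared. None differed by 1.5-fold or by 2-fold, beside 1.99% and 0.653% of all genes. Among just 9 genes, finding none is near each of these shares. Of the 9 genes 4 were higher and 5 lower under oxalate, between -0.079 for Map2k3 and 0.086 for Map2k7. Their median was -0.020, beside 0.0031 over all genes, and the median size of the difference was 0.039, beside 0.087 over all genes. All genes compared reach down to a mean of 1 FPKM and were not matched to the 9 by level. These figures therefore do not set the 9 apart from genes of like level.

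Within the p38 kinases the log2 fold changes were -0.02 for Mapk14, 0.04 for Mapk11, -0.03 for Mapk12 and -0.04 for Mapk13. In FPKM the differences lay between -3% for Mapk13 and 2.7% for Mapk11, and the sum differed by -1.7%. For Mapk14 an estimated 5529 reads under PBS and 3508 under oxalate gave an interval of the log2 ratio from -0.08 to 0.04. The intervals of Mapk11 (-0.07 to 0.15), Mapk12 (-0.13 to 0.07) and Mapk13 (-0.12 to 0.03) also included 0, and at this depth no p38 gene showed a detectable difference. Among the JNK kinases, Mapk8 had a log2 fold change of 0.004 (interval of the ratio -0.11 to 0.12) and Mapk9 of -0.062 (-0.18 to 0.04). Both intervals included 0.

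The activators differed by small amounts, in different directions. Map2k3 differed by -5.3% under oxalate, with an interval of the log2 ratio from -0.12 to -0.04 at an estimated 12921 and 7870 reads. Map2k7 was 6.3% higher, with an interval from 0.02 to 0.16 at 3706 and 2536 reads. Map2k4 was 2.8% higher, and its interval of -0.02 to 0.10 included 0. The interval left out 0 for 2 of the 9 genes, against 48.8% of the 10261 genes with a known length, so that such an interval was common between these libraries. It compares 2 libraries and not the conditions, since the spread between cultures is not known.

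**Figure D2:**
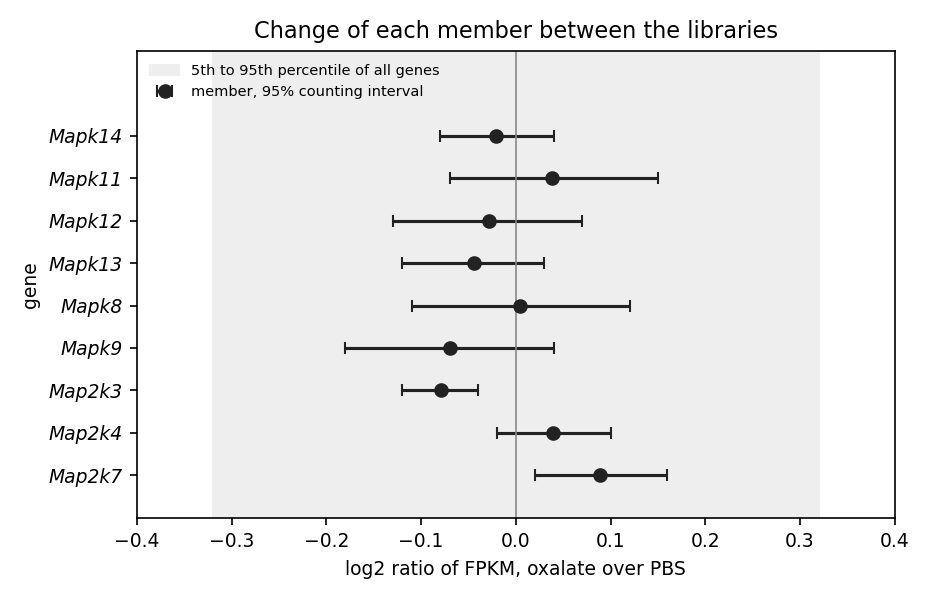
Log2 ratio of FPKM, oxalate over PBS, for the 9 genes with a value over 0 (points), with the exact 95% counting interval of estimated reads (bars) and the 5th to 95th percentile of all 10267 genes compared (grey band, -0.32 to 0.32). All points and bars lie within the band, and the bars of Map2k3 and Map2k7 leave out 0.

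**Figure D3:**
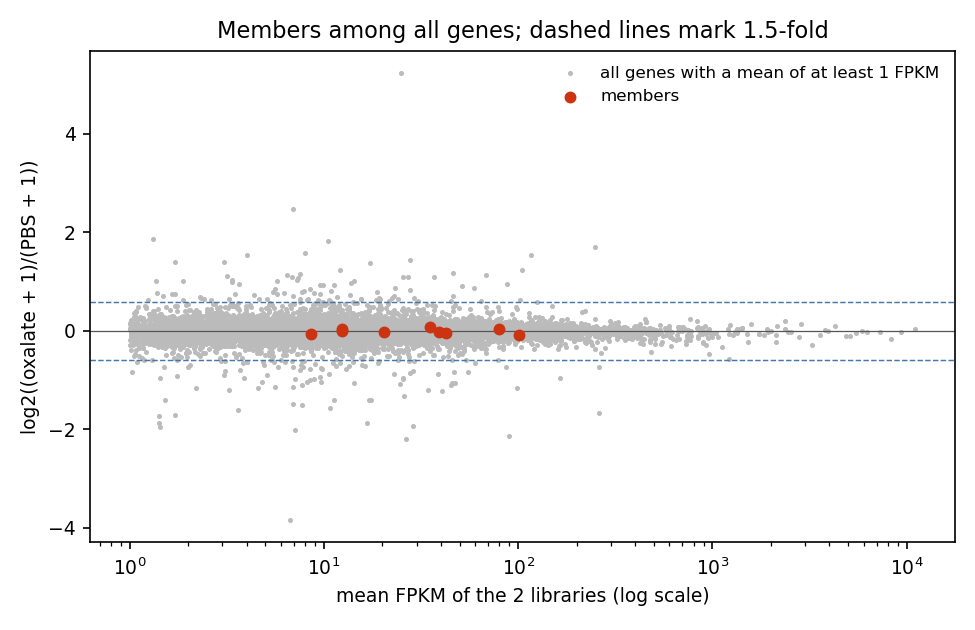
Log2((oxalate + 1)/(PBS + 1)) against mean FPKM (log scale) for the 10267 genes with a mean of at least 1 FPKM (grey) and the 9 of the 10 genes that passed this filter (red). The red points lie between -0.079 and 0.086, far inside the dashed lines at 1.5-fold.

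The 4 p38 genes lie in 2 tandem pairs. Mapk14 (ENSMUSG00000053436, chr17:28691329-28748406) and Mapk13 (ENSMUSG00000004864, chr17:28769297-28780233) are on the plus strand, 20890 bases apart. Mapk12 (ENSMUSG00000022610, chr15:89130584-89140703) and Mapk11 (ENSMUSG00000053137, chr15:89142486-89149628) are on the minus strand, 1782 bases apart. The pair on chromosome 17 held the higher levels and the pair on chromosome 15 the lower ones in both libraries. Mapk8 (ENSMUSG00000021936) lies at chr14:33377898-33447158, Mapk9 (ENSMUSG00000020366) at chr11:49846751-49886421 and Map2k7 (ENSMUSG00000002948) at chr8:4238740-4247897. Chromosome 11 also holds Map2k3 (ENSMUSG00000018932, chr11:60932033-60952811), Map2k4 (ENSMUSG00000033352, chr11:65688243-65788297) and Map2k6 (ENSMUSG00000020623, chr11:110399122-110525522). Between the p38 genes, 58.3% to 74.6% of the aligned residues were identical, highest for Mapk14 and Mapk11, and between Mapk8 and Mapk9 82.7%. Among the MAP kinases and among the MAP2 kinases, no pair shared a run of more than 23 bases in any annotated transcript. In the annotation Map2k7 overlaps the predicted gene Gm49320 on the same strand, and Mapk14 overlaps an unnamed gene model, so reads of these genes could be shared with models not analysed here. How reads that match several genes were assigned is not given in the sources used here.

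The rest of the pathway was read from 9 lists of genes that act above, beside or below these kinases, 75 genes in all, of which 67 had a mean of at least 1 FPKM. Higher values under oxalate were found for 43 of them (64.2%) and lower values for 24 (35.8%), beside 50.6% and 49% of all genes compared. Their median was 0.047, beside 0.0031 over all genes, and was below the median size of the difference over all genes, 0.087. The lists were chosen with earlier results of these data known, and whether their genes share a direction was not tested. Past 1.2-fold there were 7 (10.4%, against 9.94% of all genes), past 1.5-fold 2, both higher (2.99%, against 1.99%), and past 2-fold 1 (1.49%, against 0.653%). The MAP3 kinases numbered 17, of which 15 passed the filter, with a median log2 fold change of 0.025, or 0.043 with the filter at 5 FPKM. The highest of them was Map3k20, which encodes ZAK, a kinase that responds to stalled ribosomes, at 56.26 FPKM under PBS and 58.24 FPKM under oxalate. Taok1 (ENSMUSG00000017291, chr11:77529162-77607815), which encodes a kinase that acts on MKK3 and MKK6, was at 5.39 FPKM under PBS and 10.1 FPKM under oxalate, a log2 fold change of 0.80. Of the 5 partners of the MAP3 kinase TAK1, none differed by 1.2-fold and the median was 0.11. The highest, Tab2, was at 39.68 FPKM under PBS and 44.44 FPKM under oxalate.

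Of the 8 scaffold genes 7 passed the filter, with a median of 0.037. None was past 1.5-fold with 1 FPKM added, whereas Mapk8ip3, at 8.29 FPKM under PBS and 12.72 FPKM under oxalate, was past it with 0.1 FPKM added. The highest was Gps2 at 77.08 FPKM under PBS and 74.91 FPKM under oxalate. Among the 7 kinases downstream of p38 and ERK, 4 were higher and 3 lower, none by 1.2-fold. Mapkapk2, which encodes MK2, the best known p38 substrate kinase, was highest at 67.71 FPKM under PBS and 74.46 FPKM under oxalate. Of the 11 transcription factors listed as substrates of p38, JNK or kinases downstream of them, 10 passed the filter. Of these 8 were higher and 2 lower, and none differed by 1.2-fold. Jund, an AP-1 subunit, was highest at 406.79 FPKM under PBS and 360.41 FPKM under oxalate. The 8 phosphatases that switch these kinases off had a median of 0.048 and none past 1.5-fold, and the highest was Dusp4 at 37.42 FPKM under PBS and 39.69 FPKM under oxalate. The 3 Gadd45 genes had a median of 0.035, or 0.136 with the filter at 5 FPKM, with Gadd45b highest at 39.11 FPKM under PBS and 40.09 FPKM under oxalate. The 11 other MAP kinases and MAP2 kinases, of which 8 passed the filter, had a median of 0.036.

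The list of MK2 substrates held 4 genes that passed the filter, of which 3 were lower and 1 was higher, with a median of -0.119. The gene that was higher was Zfp36l1 (ENSMUSG00000021127, chr12:80107754-80113013), which encodes a protein that binds AU-rich mRNA and promotes its decay, at 14.47 FPKM under PBS and 40.79 FPKM under oxalate. Its log2 fold change of 1.43 is the 1 past 2-fold among the 67. Its relative Zfp36l2 was at 120.73 FPKM under PBS and 105.62 FPKM under oxalate. Both Taok1 (2 coding transcripts) and Zfp36l1 (4 coding transcripts) have several annotated coding transcripts, and the part of read assignment among transcripts in their values was not tested.

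**Figure D4:**
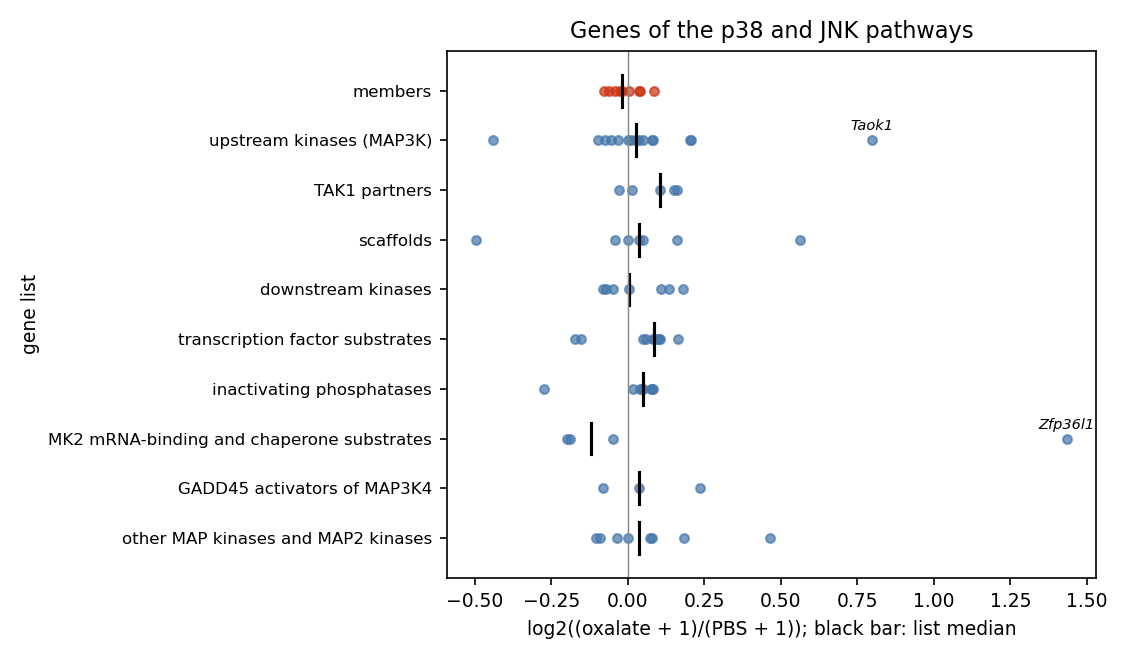
Log2((oxalate + 1)/(PBS + 1)) of each gene with a mean of at least 1 FPKM (points) in the 10-gene set (red) and in 9 lists of pathway genes (blue), with the median of each (black bars). Taok1 at 0.80 and Zfp36l1 at 1.43 lie to the right of the other genes, and the red points lie between -0.079 and 0.086.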

How the data were processed

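After 48 h of treatment with PBS or potassium oxalate, polyadenylated RNA of 4T1 cells was captured on oligo(dT) beads. It was made into randomly primed Illumina libraries, 1 per condition. For 21911 Ensembl identifiers the authors deposited FPKM, given to 2 decimals, and the submitters' processing notes name Bowtie2 2.2.8 and TopHat2 2.1.1. The quantifier, genome build and annotation are not given in the sources used here. Symbols (21848 genes), positions and lengths were taken from GENCODE M21 (GRCm38). The 10 genes and the pathway lists were chosen with earlier results of these data known.

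Low FPKM values of genes with 1 transcript under 700 bases (89 for PBS and 75 for oxalate) gave the value of 1 read, 0.0176 and 0.0274 FPKM in 1 kb, hence the depth. Reads estimated with the mean coding length summed to 55900000 and 36000000, close to that depth, and with exon-union length to 126200000 and 81300000. Intervals of ratios are Clopper-Pearson and of levels Poisson, both exact at 95%, and amplified reads are not independent molecules. No test between conditions was possible. Besides the 10 genes, the text names the highest gene of each pathway list, genes past 1.5-fold, and family members outside the set. 1 of the genes so chosen is not reported here. The genes between 1.2-fold and 1.5-fold in the closing section were added after their values were seen. With 2 libraries, no likeness of pattern between genes was measured. The scripts were tested on simulated data. Tools were biopython 1.88, scipy 1.17.1, matplotlib 3.10.9, pandas 2.3.3 and numpy 2.4.6 under Python 3.11.15.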

Additional observations from a re-analysis of the deposited data

How the results depend on the processing

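No paired analysis was possible because there is just 1 library for PBS and 1 for oxalate, and neither could be left out. With pseudocounts of 0.1 and 0.001, a rescaling to a median ratio of 1, no filter, or a filter at 5 FPKM, the number of the 10 genes past 1.5-fold and past 2-fold was 0 throughout, and their median stayed between -0.021 and -0.010. The log2 fold changes of the sums kept their direction without a pseudocount, after rescaling and in estimated reads. The shares within a tier moved when estimated reads replaced FPKM. Mapk14 went from 34.3% to 42.7% of the p38 sum in both libraries. Mapk9 went from 41.5% to 51.9% of the JNK sum under PBS and from 40.3% to 50.6% under oxalate. Estimated reads are FPKM multiplied by length, so these shifts were fixed by the lengths and do not check the shares. With the length of the longest coding transcript or the exon union, the counting interval of Map2k4 also left out 0, which made 3 genes instead of 2. Of the pathway list medians, those of the Gadd45 genes (0.035 to 0.136), the downstream kinases (0.002 to 0.056) and the MAP3 kinases (0.025 to 0.043) moved by over 1.5 times with the filter at 5 FPKM, which leaves fewer genes. All 27 list medians under other settings kept their direction. With pseudocounts of 0.1 and 0.001, settings chosen after the values were seen, 3 pathway genes instead of 2 were past 1.5-fold (Mapk8ip3 added). That was 4.48% of them, against 2.82% and 3.01% of all genes. Past 1.2-fold there were again 7 (10.4%), against 13.3% and 13.7% of all genes. Past 2-fold there was again 1 (1.49%), against 0.945% and 0.974%. With the mean coding length, the interval of the log2 ratio was 0.221 wide for Mapk8 and 0.081 wide for Map2k3, the highest gene. With exon-union length the widths were 0.101 and 0.066, so they depend on the length used as well as on depth.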

Other observations

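With 1 FPKM added to each value, 5 genes of the pathway lists lay between 1.2-fold and 1.5-fold, and were picked out after their values were seen. Past 1.2-fold lay 10.4% of the 67 pathway genes, a share near the 9.94% of all genes. Past 1.5-fold lay 2.99%, beside 1.99% of all genes. Map3k7, which encodes TAK1, a MAP3 kinase shared by the p38, JNK and NF-kB pathways, was at 21.01 FPKM under PBS and 15.22 FPKM under oxalate. The JNK scaffold genes differed in direction, with Mapk8ip1 (JIP1) at 10.44 FPKM under PBS and 7.11 FPKM under oxalate, and Mapk8ip3 (JIP3) at 8.29 and 12.72 FPKM, which is past 1.5-fold with 0.1 FPKM added. Mapk7 (ERK5) was at 9.44 and 13.4 FPKM. Dusp10, a phosphatase that acts on p38 and JNK, was at 22.38 and 18.32 FPKM. All 5 have several annotated coding transcripts, from 2 for Mapk8ip1 and Dusp10 to 10 for Mapk8ip3. No replicate bears on these values, and the part of read assignment among transcripts was not tested.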
